A study of Rattus norvegicus with 45 samples.

Results

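The genes described here encode subunits of potassium channels. They are the 92 of 20794 listed genes whose symbol begins with Kcn, then a family letter or letters and a number, with Kcnj1 left out by the same rule. By family they comprise 40 pore-forming subunits of voltage-gated channels, 12 accessory subunits of voltage-gated channels, 14 inward rectifiers, 14 two-pore-domain channels and 12 pore-forming or accessory subunits of calcium- or sodium-activated channels. All rats were male spontaneously hypertensive rats, an inbred model of high blood pressure, aged 8 weeks and weighing 220 to 260 g. They were given either empagliflozin, which blocks glucose reuptake through SGLT2 in the kidney, by gavage at 10 mg/kg per day for 30 days, or saline as the vehicle. RNA was sequenced from brain, lung, kidney, aorta, white fat, brown fat and a tissue labelled V in both arms, and from atrium in the empagliflozin arm, with 3 libraries in each of the 15 groups and 45 libraries in all. No normotensive strain was analysed here, so every group shares the hypertensive background.

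Potassium channels let potassium leave or enter cells and so set the resting potential and end action potentials. Voltage-gated pores open on depolarisation, inward rectifiers hold the resting potential, two-pore-domain channels carry background leak, and calcium-activated channels couple calcium entry to hyperpolarisation. In the heart these currents shape repolarisation, in arteries they oppose constriction, in the nephron they recycle potassium, and in neurons they set firing.

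Levels were deposited by the authors as FPKM, which divide the fragments of a gene by its transcript length and by the mapped total of its library, so levels can be set side by side between genes. The depth behind each value is unknown, and the sum of FPKM over genes ranged from 414248 to 824205 per library. Every mean is over 3 libraries and carries the SD. The tissue label of the libraries labelled V names liver and the series design names ventricle: in these libraries the mean log2(FPKM + 1) of 7 cardiomyocyte markers was 11.34 to 11.53 and that of 7 hepatocyte markers 0.63 to 0.75, with 4 of the 7 at 0 in all 3 libraries of each arm. The aorta libraries numbered 1 stood apart in both arms, being the 2 of 45 libraries that were closest to a library of another tissue. Smooth muscle markers had a level of 5.26 in vehicle aorta library 1 against 11.22 and 11.26 in the others, and brown adipocyte markers 8.17 against 5.67 and 2.94. In tissue pieces, a smaller share of a cell type and less RNA per cell cannot be told apart.

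In the vehicle arm, brain had the most members and the heart libraries labelled V the single most abundant one. A mean of at least 1 FPKM was reached by 84 members in at least 1 of the 7 vehicle tissues. In all 7 it was reached by 2 members, among them the two-pore-domain channel Kcnk6. Another 25 reached it in 1 tissue, which was brain for 23 of them. The 8 that reached it nowhere were Kcna10, Kcng3, Kcnh8, Kcnk15, Kcnk16, Kcnk18, Kcnmb3 and Kcnu1, and none of these 8 reached 1 FPKM in any library. Brain held 74 members at 1 FPKM or more, lung 42, aorta 30, white fat 30, V 27, kidney 25 and brown fat 17. Brain was the tissue of the highest mean for 56 of the 84, followed by lung for 10, V for 6, kidney for 4, aorta and white fat for 3 each and brown fat for 2.

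Of the voltage-gated pore subunits at 1 FPKM or more in a vehicle tissue, 30 of 37 had their highest mean in brain. The inward rectifiers had theirs there in 6 of 14, the accessory subunits in 7 of 12, the two-pore-domain channels in 7 of 11 and the calcium- or sodium-activated channels in 6 of 10. Whether these shares differ between families was not tested. The summed level of voltage-gated pores was 622.6 ± 61.9 FPKM in vehicle brain, 235.4 ± 24.5 in V and 41.54 ± 13.95 in brown fat. Inward rectifiers summed to 208.9 ± 3.05 FPKM in kidney, 221.2 ± 26.2 in brain and 15.7 ± 3.72 in brown fat, so kidney and brain did not differ beyond their spread. Two-pore-domain channels summed to 114.5 ± 33.1 FPKM in brown fat and 101.2 ± 42.3 in brain, again within their spread, and to 35.8 ± 5.61 in white fat. Accessory subunits summed to 654.4 ± 72.5 FPKM in V and 534.6 ± 175.7 in brain, which did not differ beyond their spread.

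**Figure D1:**
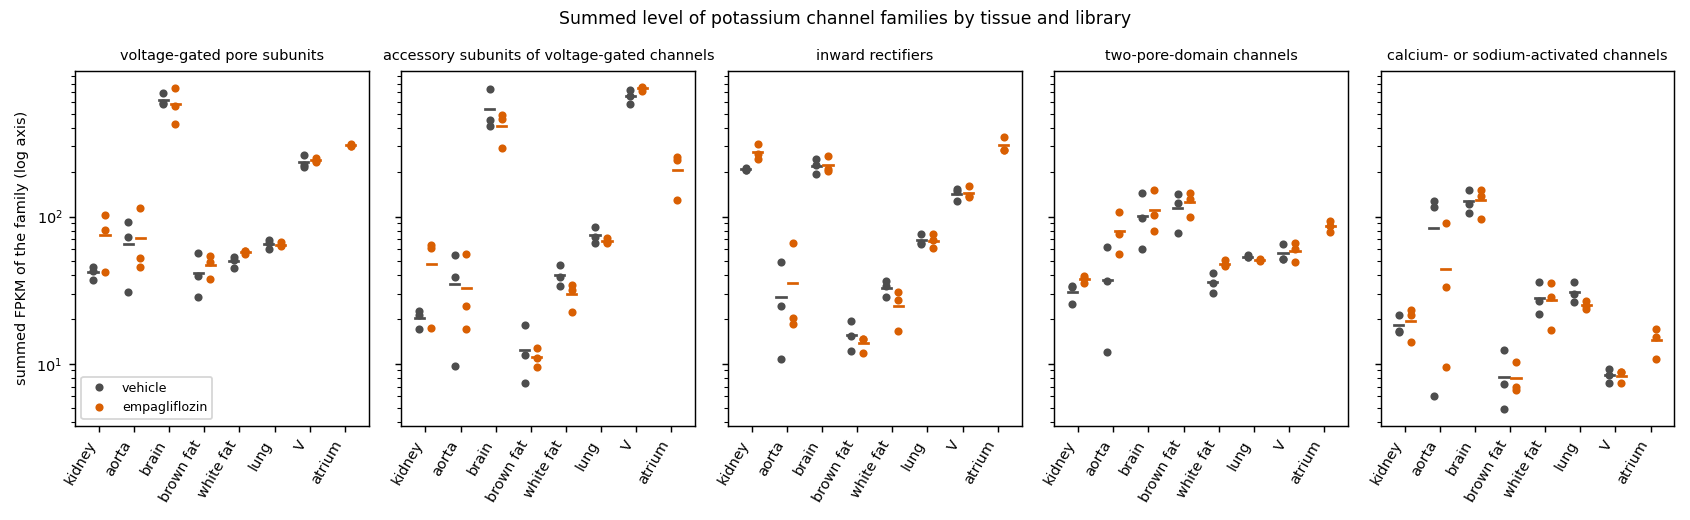
Summed FPKM (log axis) of the members of each family in each library, by tissue and arm; points are libraries and bars are means of 3. Accessory subunits reach 580.9 to 725.9 FPKM in vehicle V and 130.2 to 253.2 in atrium, while inward rectifiers are 127.3 to 153.4 and 284.5 to 345.3.

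A single member made up a large part of the total in several tissues. The calcium-binding subunit Kcnip2, which assembles with Kv4 pores into the fast transient outward current of heart muscle, held 58.3% of the summed level of all members in vehicle V. Kcnk3, an acid-sensitive background channel, held 58.2% in brown fat, and the inward rectifier Kcnj16, a partner of Kcnj10 in distal nephron cells, held 47.9% in kidney. In brain the highest member, the Kv beta subunit Kcnab2, held 17.7%, in lung Kcnj15 held 14.9% and in white fat Kcnj8 held 14.4%.

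Each vehicle tissue was then compared with the mean of the 6 others, over 16539 genes of which 84 were members. A gene was called at a limma adjusted p of at most 0.05 and a log2 difference of at least 1. Printed log2 differences are relative to the median of all genes tested, while the call and the p-value are not. They are on the log2(FPKM + 1) scale, which understates changes of low genes, and the 7 comparisons share their libraries. The p-values measure the spread between these libraries. Empagliflozin libraries took no part in these tests. A member called higher in a tissue can have a higher mean in another, since each contrast is with the mean of 6 tissues.

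In kidney 12 members were called higher and 25 lower, where 28.8% of all genes were called (14.1% higher and 14.7% lower). The median log2 difference of the members was -0.66, against -0.10 over all genes. Kcnj16 (gene 29719) was at 157.67, 142.87 and 159.71 FPKM in vehicle kidney, with a second-highest tissue mean of 8.04 FPKM in brain. The kidney libraries lay close together, and the log2 difference was 6.84 ± 0.21 (SE, limma adjusted p = 1.2e-14). Kcnj15, another inward rectifier, was at 20.65, 31.05 and 20.07 FPKM, with a log2 difference of 3.47 ± 0.14. Kcne1, the minK subunit that slows Kcnq1, was at 7.77, 9.79 and 12.01 FPKM, with a difference of 2.97 ± 0.18. The sodium-activated channel Kcnt1 was at 12.07, 12.38 and 16.39 FPKM, with a difference of 2.94 ± 0.28. Kcnk1, Kcnk5, Kcnj10 and Kcnq1 were also called higher, by 2.58, 2.69, 1.89 and 1.98. The BK pore Kcnma1, at 0.21, 0.50 and 0.39 FPKM, was not. Brain had higher means of Kcnj10 (42.78 FPKM against 6.08 in kidney), Kcnk1 (39.16 against 17.65) and Kcnt1 (17.11 against 13.61). Kcnq1 was higher in V, at 29.47 FPKM against 15.17 in kidney. The mean of Kcne1 was 9.86 FPKM in kidney and 9.18 in V, where the libraries were at 13.54, 4.34 and 9.65. By family, 5 of 14 inward rectifiers were called higher, against 3 of 37 voltage-gated pores.

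Brain differed in the other direction, with 60 members called higher and 8 lower, where 41.3% of all genes were called 23.0% higher and 18.3% lower. The members' median log2 difference was 2.23, against -0.01 over all genes. Kcnab2 was at 177.89, 233.72 and 442.99 FPKM and differed by 6.58 ± 0.23. Kcnh3, an Eag-like pore of forebrain neurons, was at 45.18, 56.30 and 43.33 FPKM and differed by 5.40 ± 0.09. Kcnab2 had the higher level of the pair and the wider spread. The neuronal inward rectifier Kcnj4 differed by 4.84 ± 0.13. Among voltage-gated pores 31 of 37 were called higher, among calcium- or sodium-activated members 6 of 10, and among two-pore-domain channels 6 of 11. Neuron markers were at 8.10 to 8.32 in these libraries, and their part in the result was not tested.

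In aorta 4 members were called higher and 21 lower, where 14% of all genes were called (5.29% higher and 8.67% lower). Under quantile normalization the split was 8 higher and 15 lower, where 6.5% of all genes were called higher and 5.9% lower. Kcnmb1, the beta subunit that raises the calcium sensitivity of the smooth muscle BK channel, was at 1.16, 115.69 and 94.03 FPKM, and its difference was 4.31 ± 0.74 (limma adjusted p = 0.000319). Kcne4, a subunit that restrains several Kv pores, was at 0.95, 18.16 and 23.73 FPKM and differed by 2.24 ± 0.48. Kcnj8, the pore of the vascular ATP-sensitive channel, was at 3.78, 21.73 and 39.93 FPKM and differed by 1.57 ± 0.39. All of these were lowest in library 1, the library with few smooth muscle transcripts. Kcna5, a voltage-gated pore of arteries and atria, was at 6.19, 1.69 and 13.01 FPKM and differed by 1.46 ± 0.41. The calls of Kcnj8 and Kcna5 each rested on single libraries: Kcnj8 was lost without library 2 or library 3, with log2 differences, before subtracting the median, of 1.11 and 0.68 in place of 1.34. Kcna5 was lost without library 1 or library 3, with 1.16 and 0.67 in place of 1.23. Without library 1, 8 members were called higher and 18 lower, where 9.68% of all genes were called higher and 9.02% lower. The differences before subtracting the median were then 5.95 for Kcnmb1 in place of 4.08, 3.16 for Kcne4 in place of 2.00 and 2.23 for Kcnj8. The BK pore Kcnma1, at 0.22, 4.18 and 4.19 FPKM, missed the size limit.

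In brown fat 2 members were called higher and 30 lower, where 23.0% of all genes were called (7.82% higher and 15.2% lower). Under quantile normalization the split was 2 higher and 20 lower, where 9.66% of all genes were called higher and 9.14% lower. Kcnk3 was at 120.42, 76.38 and 138.79 FPKM, with a difference of 4.04 ± 0.43 (limma adjusted p = 2.89e-06). Kcna5 was at 6.73, 7.65 and 19.63 FPKM, with a difference of 2.47 ± 0.41. Vehicle aorta library 1, which resembles brown fat, held Kcnk3 at 59.77 FPKM against 4.64 and 27.76 in the other aorta libraries, and without it the brown fat difference of Kcnk3 before subtracting the median was 3.83 in place of 3.71.

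In white fat 6 members were called higher and 23 lower, where 17.7% of all genes were called (9.8% higher and 7.91% lower). The small-conductance calcium-activated pore Kcnn3 was at 18.66, 21.74 and 20.34 FPKM and differed by 3.05 ± 0.35. Kcnj8 was at 31.04, 24.73 and 24.44 FPKM and differed by 2.22 ± 0.39. Kcne2, a single-span subunit that assembles with several Kv pores, was at 11.81, 7.94 and 11.50 FPKM and differed by 1.90 ± 0.14. These libraries lay close together. The Kv4-binding subunit Kcnip1 differed by 1.80 ± 0.32.

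Lung had 18 members called higher and 16 lower, where 29.1% of all genes were called (21% higher and 8.17% lower). The split was 12 and 23 under quantile normalization, where 14.5% of all genes were called higher and 14.4% lower. Under median-ratio scaling it was 13 and 18, where the shares of all genes were 14.6% and 12.4%. Kcnj15 was at 38.99, 40.12 and 51.92 FPKM, above its 23.92 ± 6.18 FPKM in kidney, and differed by 4.10 ± 0.14. Kcne2 was at 38.19, 30.11 and 27.79 FPKM and differed by 3.42 ± 0.14. Kcnk1, a weakly conducting two-pore-domain channel, was at 23.66, 23.85 and 22.75 FPKM and differed by 2.67 ± 0.15. The Kcnk1 libraries were nearly equal. The intermediate-conductance channel Kcnn4, found in lymphocytes and epithelia, was at 12.39, 19.10 and 9.16 FPKM and differed by 2.42 ± 0.45, and Kcna3, the Kv pore of T cells, at 3.25, 2.95 and 3.80 FPKM, differed by 1.44 ± 0.12. T cell markers were at 3.31 to 4.70 in vehicle lung, and their part in these levels was not tested.

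In the libraries labelled V 14 members were called higher and 20 lower, where 27.7% of all genes were called (8.42% higher and 19.3% lower). Under quantile normalization 17 were higher and 16 lower, where 11.6% of all genes were higher and 10.7% lower. Kcnip2 was at 561.66, 717.46 and 641.43 FPKM, with a difference of 7.72 ± 0.36. Kcng2, a silent subunit that assembles with Kv2 pores, was at 142.31, 170.85 and 131.66 FPKM, with a difference of 5.54 ± 0.40. Kcnj11, the pore of the muscle ATP-sensitive channel, was at 61.03, 76.02 and 74.83 FPKM, with a difference of 4.95 ± 0.29. All 3 were far above every other vehicle tissue, the nearest being brain at 78.36, 17.74 and 12.92 FPKM. Kcnj5 differed by 4.10 ± 0.10 and its partner Kcnj3 by 3.93 ± 0.16, though the mean of Kcnj3 was higher in brain (43.34 FPKM against 23.86 in V). Of 16 tested genes that work with these channels without being members, 5 were called higher in V. They were Abcc9 and Abcc8, the sulfonylurea receptors of the ATP-sensitive channels, by 3.44 and 2.69, the pacemaker-current pores Hcn2 and Hcn4 by 5.28 and 2.54, and Amigo1, a partner of Kv2 pores. Hcn4 was at 18.44, 0.64 and 3.09 FPKM, and without V library 1 its log2 difference before subtracting the median was 1.12 in place of 2.09. The call of Amigo1, just above the size limit, was lost without V library 2 or 3 and without single libraries of aorta, brown fat or white fat.

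**Figure D2:**
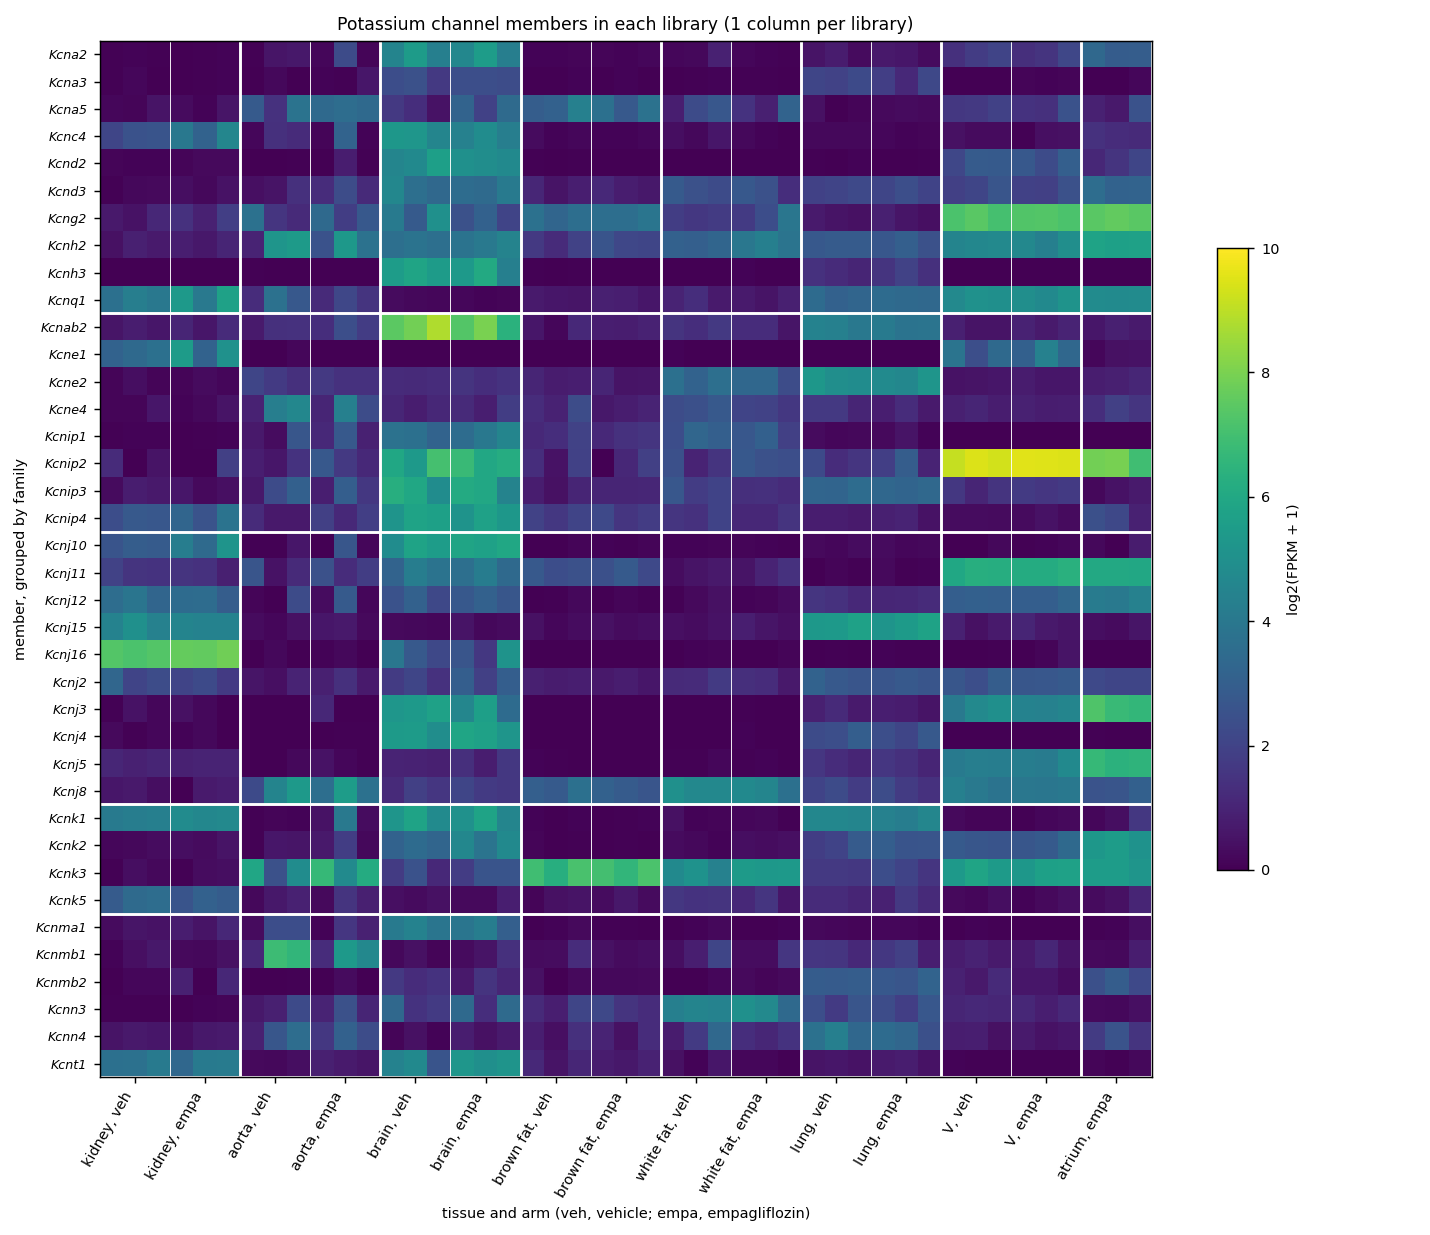
Colour gives log2(FPKM + 1) of named members (rows, by family) in each of the 45 libraries (columns, by tissue and arm). Kcnip2, Kcng2 and Kcnj11 stand out in V and atrium, Kcnj16 in kidney and Kcnk3 in brown fat; the first aorta column of each arm resembles brown fat.

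Atrium was compared with V within the empagliflozin arm, since atrium was analysed in that arm only. The muscle of the 2 chambers is known for different currents: atrial cells carry the acetylcholine-activated current of Kcnj3 with Kcnj5, and ventricular cells a larger Kcnj2 current. Of 36 members tested, 25 were called (16 higher and 9 lower in atrium) at a limma adjusted p of at most 0.05. Among all 12541 genes 51.7% were called, 37.2% higher and 14.5% lower, and the median log2 difference was 0.28 for members and 0.21 for all genes. Groups did not overlap for 27 members, 17 higher and 10 lower, where they did not overlap for 61.7% of all genes. An exact permutation test of 3 libraries against 3 cannot go below p = 0.1.

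Inward rectifiers summed to 304.8 ± 35.1 FPKM in atrium and 145.2 ± 14.3 in V, and within the family the members went both ways. Kcnj3 (gene 50599) was at 150.42, 109.69 and 96.90 FPKM in atrium and at 20.73, 19.92 and 22.36 in V, a log2 difference of 2.21 ± 0.16 (limma adjusted p = 9.65e-05). Kcnj5 (gene 29713) was at 103.19, 85.44 and 90.56 FPKM against 18.07, 16.64 and 26.09, a difference of 1.96 ± 0.17 (adjusted p = 0.000174). Both subunits of the acetylcholine-activated channel were thus several times higher in every atrial library than in any V library. The vehicle V libraries held 15.34 to 30.94 FPKM of Kcnj3 and 16.53 to 18.56 FPKM of Kcnj5. Kcnj12, a strong inward rectifier, was at 16.93, 15.58 and 20.23 FPKM against 6.87, 6.97 and 8.90, a difference of 0.90 ± 0.13. Kcnj8 was at 4.92, 5.23 and 7.48 FPKM against 14.70, 14.05 and 14.90, a difference of -1.41 ± 0.14. Kcnj2, the main pore of the ventricular inward rectifier, was at 3.57, 3.24 and 3.23 FPKM against 5.44, 5.63 and 6.10, a difference of -0.84 ± 0.10. Neither pair of groups overlapped, and both genes were lower in atrium. Kcnj11 was at 64.72, 64.14 and 62.81 FPKM against 70.45, 69.27 and 80.78 and was not called (adjusted p = 0.085), though it was called lower under median-ratio scaling. The sulfonylurea receptor Abcc9 was at 57.3 ± 19.0 against 44.5 ± 3.86 FPKM and was not called, and Abcc8, at 17.2 ± 1.48 against 11.3 ± 0.35, was called higher by 0.35 ± 0.09.

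The accessory subunits changed in both directions. Kcne1 (gene 25471) was at 0.12, 0.35 and 0.39 FPKM in atrium and at 7.44, 20.11 and 9.19 in V, a log2 difference of -3.46 ± 0.33 (limma adjusted p = 0.000403). Kcnip2 (gene 56817) was at 233.07, 243.35 and 121.86 FPKM against 748.26, 722.05 and 702.43, a difference of -2.13 ± 0.25 (adjusted p = 0.00106). The groups did not overlap, and Kcnip2 still had the highest mean of the members in atrium. In atrium library 3, though, Kcng2 was higher, at 174.76 FPKM. Kcnip3, a related calcium-binding subunit, was at 0.16, 0.42 and 0.63 FPKM against 2.25, 1.99 and 2.29, a difference of -1.40 ± 0.16. Kcnip4 went the other way, at 4.42, 3.55 and 0.87 FPKM against 0.24, 0.40 and 0.22, with a difference of 1.27 ± 0.38 and an adjusted p of 0.0152. Without atrium library 2 its adjusted p was 0.0505. The partner of Kcne1, the slow delayed rectifier pore Kcnq1, was at 27.60, 26.42 and 27.15 FPKM against 29.57, 26.14 and 34.02 and was not called (adjusted p = 0.32); like Kcnj11, it was called lower under median-ratio scaling.

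The promoters of 3 of these genes are shown because the results turn on them and each has 1 start in the table: Kcnj5, higher in atrium, and Kcnip2 and Kcne1, lower. Sequences are from RefSeq, build GRCr8, the 250 bases before the start on the gene's own strand, which is the minus strand for each. They lie at chr8:39011097-39011346 (Kcnj5), chr1:254613899-254614148 (Kcnip2) and chr11:45077034-45077283 (Kcne1). Capitals mark the GC box GGGCGG or the GATA-type motif GATAA, each searched on both strands; TTATC is the reverse complement of GATAA.
Kcnj5: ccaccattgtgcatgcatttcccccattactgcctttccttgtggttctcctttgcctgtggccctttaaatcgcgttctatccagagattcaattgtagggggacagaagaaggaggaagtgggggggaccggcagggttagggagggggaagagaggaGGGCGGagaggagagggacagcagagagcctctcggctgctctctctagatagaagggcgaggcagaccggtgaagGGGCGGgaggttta
Kcnip2: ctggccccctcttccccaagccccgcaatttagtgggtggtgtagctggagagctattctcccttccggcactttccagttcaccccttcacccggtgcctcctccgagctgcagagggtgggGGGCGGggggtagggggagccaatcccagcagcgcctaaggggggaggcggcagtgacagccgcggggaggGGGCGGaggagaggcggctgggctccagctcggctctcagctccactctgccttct
Kcne1: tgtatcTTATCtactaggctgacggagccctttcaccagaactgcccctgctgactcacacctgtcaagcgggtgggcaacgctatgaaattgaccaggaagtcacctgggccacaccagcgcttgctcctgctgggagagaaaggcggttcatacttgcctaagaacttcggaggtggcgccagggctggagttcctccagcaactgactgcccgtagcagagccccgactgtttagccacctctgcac
Kcnj5 and Kcnip2 hold the GC box 2 times each, and Kcne1 holds GATAA 1 time. Of 33469 promoters of this length, 30.5% hold GGGCGG and 23.5% GATAA. Of the 62 members with a promoter in the table, 31 hold GGGCGG and 11 GATAA in at least 1 promoter. These counts are of genes, which may have several promoters, and the shares are of single promoters, so they cannot be compared. These matches describe letters only.

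Among voltage-gated pores 8 of 15 were called higher and 2, Kcnd2 among them, lower in atrium, and the summed level was 304.9 ± 7.28 FPKM against 241.4 ± 7.09. Summed levels, unlike the log2 differences, were not set relative to the median of all genes. That median was 0.21 on the log2 scale, higher in atrium. Kcnh2, the pore of the rapid delayed rectifier, was at 54.56, 50.96 and 51.36 FPKM in atrium and at 24.60, 19.18 and 29.33 in V, a log2 difference of 0.88 ± 0.15. The groups did not overlap, but the call was lost with all libraries in 1 fit (limma adjusted p = 0.193). The 2 Kv4 pores tested, Kcnd3 and Kcnd2, which bind Kcnip2, went opposite ways. Kcnd3 was at 10.84, 7.95 and 7.99 FPKM against 2.86, 2.71 and 4.55, a difference of 0.98 ± 0.19. Kcnd2 was at 1.17, 1.86 and 3.20 FPKM against 5.67, 3.85 and 7.17, a difference of -1.33 ± 0.28 (limma adjusted p = 0.0144). Neither pair of groups overlapped. Kcna2, a delayed rectifier pore best known from axons, was at 9.45, 6.47 and 6.80 FPKM against 1.55, 1.80 and 3.37, a difference of 1.22 ± 0.23. Kcnc4, a fast Kv3 pore, differed by 0.79 ± 0.17 at 1.31 to 1.72 FPKM in atrium. Kcng2, at 170.66, 195.03 and 174.76 FPKM against 152.91, 160.88 and 143.66, was not called (limma adjusted p = 0.0534). Its groups did not overlap, and it was called higher under quantile normalization. Kcna5, which carries the ultrarapid current in human atrium, was at 0.88, 0.60 and 4.80 FPKM against 1.77, 1.65 and 4.76; the groups overlapped and it was not called (adjusted p = 0.524).

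Of the remaining families, 1 of 3 two-pore-domain channels and 4 of 6 calcium- or sodium-activated members were called, where 51.7% of all genes were. Kcnk2, the stretch-sensitive TREK-1 channel, was at 38.10, 44.60 and 33.21 FPKM in atrium and at 5.42, 6.03 and 9.66 in V, a log2 difference of 2.12 ± 0.20 (limma adjusted p = 0.000254). Its relative Kcnk3 was at 42.1 ± 4.90 against 47.0 ± 7.18 FPKM and was not called (adjusted p = 0.395). Kcnmb2, an inactivating BK beta subunit, was at 4.43, 6.76 and 3.57 FPKM against 0.53, 0.52 and 0.26, a difference of 1.80 ± 0.21, and Kcnn4 at 2.30, 4.93 and 1.80 FPKM against 0.63, 0.41 and 0.54, a difference of 1.11 ± 0.27. The small-conductance pores Kcnn1 and Kcnn3 were called lower, by -0.70 and -0.96. The call of Kcnn1 was lost without atrium library 1 or 2 or V library 1 or 3, that of both with all libraries in 1 fit, and Kcnn3 did not pass the filter on low values without V library 3. Among 8 tested partner genes Hcn4, Akap9, Abcc8 and Nedd4l were called higher and Hcn2 and Amigo1 lower; with all libraries in 1 fit Abcc8, Nedd4l and Amigo1 were not called. Nedd4l was not called under either other scaling, and the Amigo1 call was lost without atrium library 1 or 2 or V library 2 or 3. Hcn2, at 7.13, 7.11 and 11.28 FPKM in atrium against 120.74, 124.52 and 110.44 in V, differed by -3.89 ± 0.17, and Hcn4, the main pacemaker pore, differed by 2.63 ± 0.41.

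**Figure D3:**
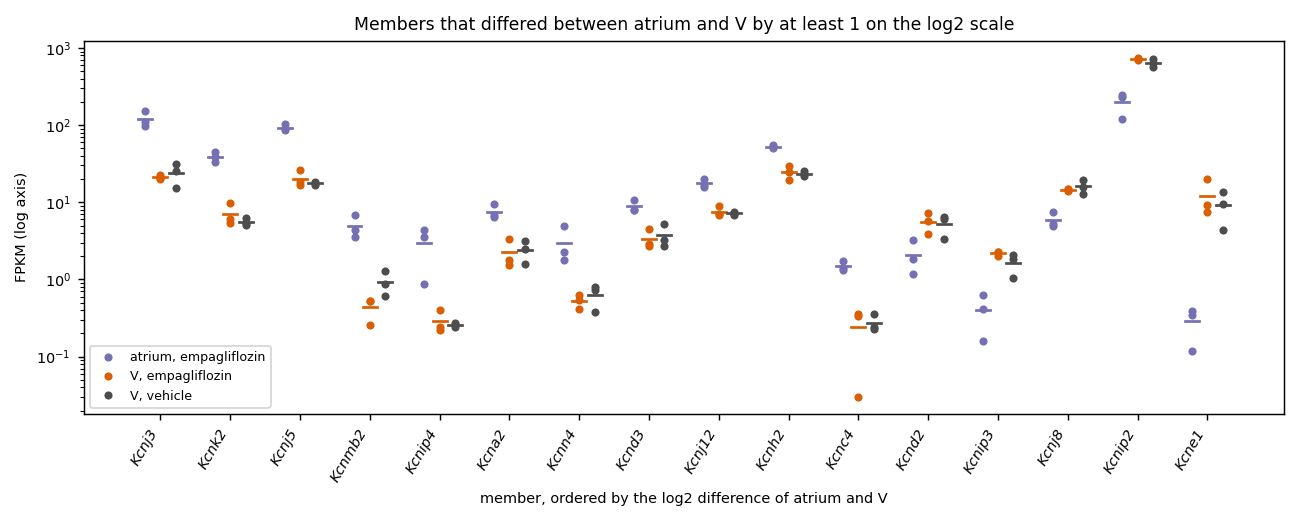
FPKM (log axis) of the 16 members called between atrium and V with an absolute log2 difference of at least 1 before the median of all genes was subtracted; points are libraries, bars means of 3, and vehicle V is shown beside. Kcnj3, Kcnj5 and Kcnk2 lie above both V groups in every atrial library, and Kcne1 and Kcnip2 below.

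Markers of atrial muscle were at 13.62 to 14.29 in atrium and 2.26 to 5.82 in V, those of ventricular muscle at 3.22 to 4.67 and 9.03 to 9.63, and those of all cardiomyocytes at 10.93 to 11.04 and 11.42 to 11.47. Mesothelial markers were at 4.29 to 4.85 in atrium and 0.10 to 1.62 in V, Schwann cell markers, with overlap, at 2.31 to 4.37 and 2.19 to 2.68, and pericyte markers at 2.94 to 3.88 and 4.23 to 4.29. Their part in the differences of single members was not tested. With a mean of at least 5 FPKM required, 18 members were tested and 13 called. The 12 lost calls were of members below that mean in both groups. The share of all genes called under that filter is not given here, and in the main fit it was 51.7%. With all libraries in 1 fit 13 were called, where 21.9% of all genes were. Calls lost in that fit included those of Kcnc4, Kcne4, Kcng4, Kcnh2, Kcnip3, Kcnj12, Kcnj2, Kcnj8, Kcnn1, Kcnn3 and Kcnv2. Kcnj3, Kcnj5, Kcnk2, Kcne1, Kcnip2, Kcnmb2 and Kcnd3 kept a limma adjusted p of at most 0.0111 in every setting that tested them. None of the 25 changed sign.

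Empagliflozin was compared with vehicle in the 7 tissues that had both arms. No member was called in any of them: the count at a limma adjusted p of at most 0.05 was 0 in all 7, where the share of all genes called was 0.0085% in brown fat and V, 0.00785% in white fat and 0.0% in the rest. At an unadjusted p under 0.05 the members numbered 8 of 29 in kidney, 0 of 41 in aorta, 7 of 75 in brain, 1 of 19 in brown fat, 7 of 32 in white fat, 1 of 42 in lung and 0 of 27 in V. The same shares over all genes were 11.7%, 1.1%, 2.57%, 3.56%, 8.68%, 7.62% and 4.05%. Members' median log2 differences, each followed by that of all genes, were 0.22 and 0.10 in kidney, 0.33 and 0.18 in aorta, 0.04 and 0.05 in brain, 0.12 and 0.05 in brown fat, -0.35 and -0.17 in white fat, -0.01 and 0.03 in lung, and 0.06 and 0.01 in V. The aorta fit recovered none of the known differences on simulated data, so its 0 calls cannot show whether members changed there. No partner gene was called in any tissue. The members with the lowest p in each direction are described below with that status.

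**Figure D4:**
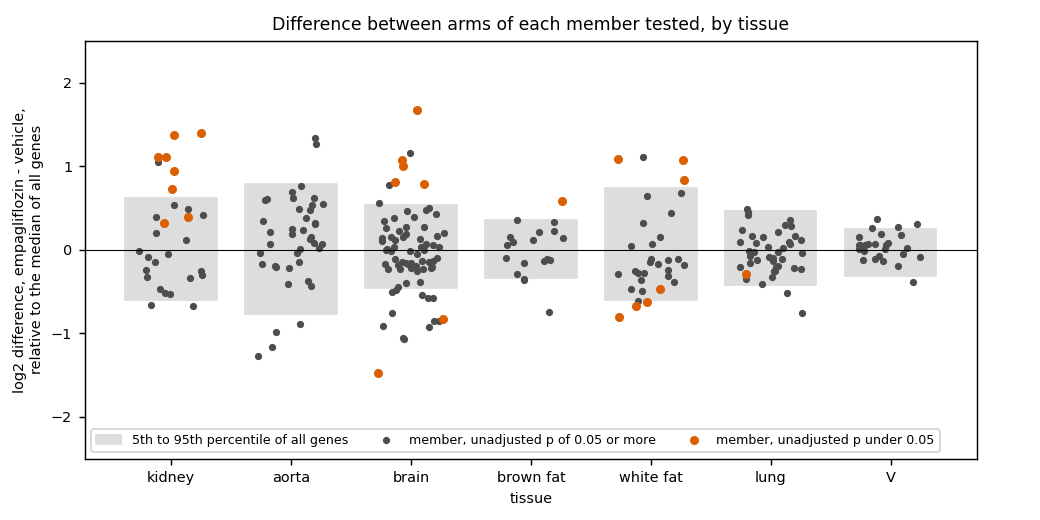
Log2 difference between empagliflozin and vehicle, relative to the median of all genes, of each member tested (points), by tissue; grey boxes span the 5th to the 95th percentile of all genes. Coloured points have an unadjusted p under 0.05, and 0 members passed the adjusted threshold; V has the narrowest spread.

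In kidney the 8 members with an unadjusted p under 0.05 all had higher means under empagliflozin, and the groups did not overlap for 6 members, where they did not for 19.1% of all genes. Kcnk1 was at 27.04, 23.63 and 25.24 FPKM against 16.49, 17.71 and 18.75 in vehicle, a log2 difference of 0.39 ± 0.11 (unadjusted p = 0.00223, limma adjusted p = 0.418). Kcnj16 was at 199.55, 191.90 and 225.28 FPKM against 157.67, 142.87 and 159.71, a difference of 0.31 ± 0.11. In these 2 the empagliflozin libraries lay close together. Kcnj10, which pairs with Kcnj16 in the basolateral membrane of the distal nephron, was at 17.90, 9.84 and 35.35 FPKM against 5.02, 6.80 and 6.41, a difference of 1.37 ± 0.40. Kcnc4 was at 15.03, 7.75 and 22.91 FPKM against 3.30, 4.70 and 5.01, a difference of 1.40 ± 0.36. In both, library 2 was the lowest of the empagliflozin group. The epithelial rectifier Kcnj13 was at 7.88, 4.11 and 13.42 FPKM against 2.33, 2.99 and 2.99, with the same order of libraries.

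Kcnq1 and its subunits showed a wider split between libraries. Kcnq1 was at 40.67, 15.42 and 51.30 FPKM under empagliflozin against 11.80, 18.65 and 15.06 in vehicle. Kcne1 was at 44.10, 7.82 and 32.65 FPKM against 7.77, 9.79 and 12.01, and Kcne3, which holds Kcnq1 open, at 6.85, 1.64 and 6.36 against 0.83, 1.64 and 1.56. In all 3, empagliflozin libraries 1 and 3 were above every vehicle library and library 2 was within or at the vehicle range. The lower means with the lowest p were those of Kcne5, Kcnk5 and Kcng1, with differences of -0.68, -0.53 and -0.52 and unadjusted p of 0.0931, 0.102 and 0.132. Without empagliflozin kidney library 2, 6 members were called, namely Kcnc4, Kcne1, Kcne3, Kcnj10, Kcnj13 and Kcnq1, with log2 differences before subtracting the median of 1.55 to 1.90, where 4.9% of all genes were called. With all libraries in 1 fit, Kcne3 and Kcnj10 were called, 2 of 29 members tested, where 2% of all genes were.

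For Kcnk1, Kcnj16, Kcnj10, Kcnc4, Kcnj13 and Kcnab1 every empagliflozin library, library 2 included, was above every vehicle library. Over all genes the share without overlap was 19.1%. Library 2 was still the lowest of the empagliflozin group in each of these members. Kcnab1 was at 1.99, 1.06 and 4.07 FPKM against 0.50, 0.88 and 0.99 in vehicle. Markers of the distal nephron and collecting duct were split between libraries as Kcnq1, Kcne1 and Kcne3 were. Their level was 8.54, 6.80 and 9.02 in the empagliflozin kidney libraries and 6.04, 6.76 and 6.80 in vehicle, so libraries 1 and 3 were high and library 2 was not. Podocyte markers were at 4.49, 3.86 and 5.41 against 2.67, 3.18 and 4.21, thick ascending limb markers at 7.34, 8.38 and 7.88 against 8.02, 8.01 and 8.08, and proximal tubule markers at 6.18, 6.40 and 6.14 against 6.47, 6.63 and 6.52. Their part in the member values was not tested.

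**Figure D5:**
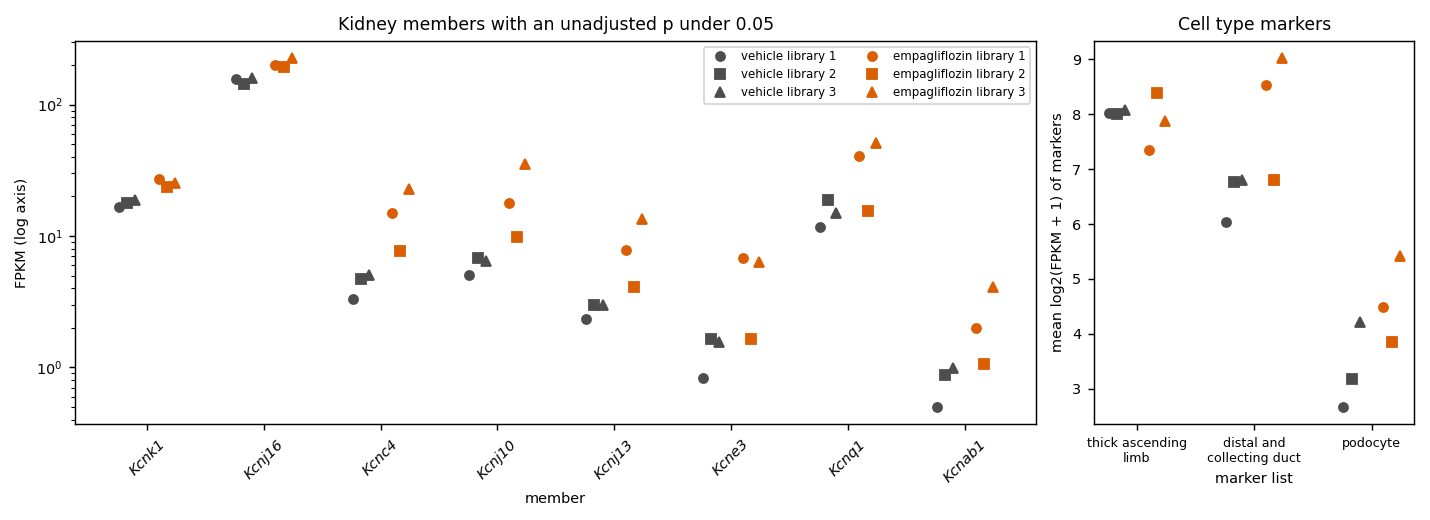
Left, FPKM (log axis) of the 8 kidney members with an unadjusted p under 0.05, by library (symbol) and arm (colour); right, mean log2(FPKM + 1) of marker lists in the same libraries. Empagliflozin libraries 1 and 3 are high for Kcnq1, Kcne3 and the distal and collecting duct markers (8.54 and 9.02), and library 2 (6.80) lies at the vehicle level.

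In brain, groups did not overlap for 7 members, 6 higher and 1 lower under empagliflozin, where they did not for 5.92% of all genes. Kcnk2 was at 23.90, 13.54 and 25.91 FPKM against 7.73, 10.16 and 8.57 in vehicle, a log2 difference of 1.08 ± 0.25 (unadjusted p = 0.00359, limma adjusted p = 0.982). Kcnh4, an Eag-like pore of brain, was at 12.39, 7.99 and 9.17 FPKM against 3.37, 6.63 and 3.09, a difference of 1.005 ± 0.284. Kcna5 was at 8.16, 2.83 and 10.03 FPKM against 2.19, 1.45 and 0.39, a difference of 1.67 ± 0.48. For Kcnk2 and Kcna5, library 2 was the lowest of the empagliflozin group. Kcnn2, a small-conductance calcium-activated pore of the neuronal afterhyperpolarisation, was at 11.24, 15.24 and 8.42 FPKM against 16.48, 21.09 and 23.70, a difference of -0.83 ± 0.23. Kcng2 was at 4.55, 7.68 and 3.14 FPKM against 15.76, 6.10 and 31.37, with overlap, and Kcns3, a silent Kv subunit, at 1.84, 4.79 and 1.21 against 4.17, 5.94 and 5.06. Neuron markers were at 7.92, 8.52 and 7.37 under empagliflozin and 8.10, 8.32 and 8.17 in vehicle, lowest in the libraries where Kcnk2 and Kcna5 were high, and their part was not tested. With all libraries in 1 fit 5 members were called, namely Kcnh4, Kcnk2 and Kcnt1 higher and Kcnn2 and Kcnj6 lower, out of 75 tested, where 1.39% of all genes were called.

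In white fat, groups did not overlap for 9 members, 3 higher and 6 lower, where they did not for 17.2% of all genes. Kcnh2 was at 14.61, 18.89 and 13.38 FPKM under empagliflozin against 7.68, 7.10 and 8.58 in vehicle, a log2 difference of 1.08 ± 0.20 (unadjusted p = 0.00227, limma adjusted p = 0.408). Kcnk3 was at 42.16, 39.81 and 42.06 FPKM against 25.63, 33.11 and 20.22, a difference of 0.83 ± 0.21. In both genes every empagliflozin library was above every vehicle library. Kcnip2 was at 5.67, 4.58 and 4.30 FPKM against 4.50, 0.98 and 1.83, with overlap. Kcns3 was at 2.76, 2.55 and 1.79 FPKM against 5.65, 5.68 and 3.49, a difference of -0.63 ± 0.25, and Kcnip3 at 1.53, 1.63 and 1.35 against 5.54, 2.46 and 3.08, a difference of -0.68 ± 0.28. Kcne4 was at 3.11, 2.92 and 2.05 FPKM against 4.03, 4.44 and 5.87. Empagliflozin white fat library 3 had brown adipocyte markers at 6.08, against 1.31 and 1.80 in the others and 2.14 to 2.26 in vehicle, and Kcnn3 there was at 9.68 FPKM against 31.50 and 24.90. The part of this in the white fat values was not tested.

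The other 4 tissues gave smaller differences or wider spreads. In brown fat Kcnh2 was at 5.05, 3.34 and 3.23 FPKM against 2.18, 1.35 and 2.92 (log2 difference 0.59 ± 0.24, unadjusted p = 0.0309, limma adjusted p = 0.994), the 1 member without overlap, where 8.39% of all genes had none. The lowest p with a lower mean was that of Kcne4, at -0.74 ± 0.34. In lung, where 12.9% of all genes did not overlap and Kcnk6, Kcnk12 and Kcne3 did not, Kcnk6 was at 14.33, 15.98 and 14.21 FPKM against 19.04, 17.66 and 17.51 (-0.30 ± 0.09, unadjusted p = 0.0229). Kcnk12, a silent relative of the two-pore-domain channels, was at 3.03, 3.58 and 2.68 FPKM against 2.57, 2.16 and 1.26 (0.45 ± 0.20), and Kcnn4 at 10.29, 8.88 and 4.39 against 12.39, 19.10 and 9.16 (-0.76 ± 0.34).

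In V no member's groups were without overlap, where 9.07% of all genes' were. Low p values with a higher mean were those of Kcnn1 (0.30 ± 0.17), Kcnip2 and Kcnip3, and with a lower mean those of Kcns3 (-0.38 ± 0.19) and Kcnj8. Kcnip2 was at 748.26, 722.05 and 702.43 FPKM against 561.66, 717.46 and 641.43, a log2 difference of 0.18 ± 0.11. In aorta groups did not overlap for 1 member, Kcnk1, where they did not for 6.75% of all genes, and the spread was the widest. Kcnmb1 was at 1.38, 40.02 and 24.35 FPKM under empagliflozin against 1.16, 115.69 and 94.03, with library 1 near 1 in both arms. The members with the lowest p were Kcnip4 (0.61 ± 0.38, unadjusted p = 0.0793) and Kcnq1 (-1.17 ± 0.65, unadjusted p = 0.176). The log2 difference of Kcnq1 before subtracting the median was -1.64 without vehicle aorta library 1 and -0.42 without vehicle aorta library 2, in place of -0.99, and it was called in neither. Without both libraries numbered 1, 0 members were called in aorta, but the aorta fit recovered none of the known differences on simulated data. Empagliflozin aorta library 2 had Schwann cell markers at 9.49 and neuron markers at 4.97, against 3.61 and 0.78 in library 1 and 3.24 and 0.30 in library 3, and it held 15.31 FPKM of Kcnk1 against 0.39 and 0.27 in the others; their part in this was not tested.

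A test of whether the difference between arms itself differed between tissues, as an arm by tissue term in 1 limma model, called 0 of 84 members, where 0.493% of 16822 genes were called. The smallest adjusted p was 0.178, for Kcnh4, and 10 members had an unadjusted p under 0.05, where 8.21% of all genes had one. Without vehicle aorta library 1 the term called Kcnq1 (limma adjusted p = 0.00724) and Kcnma1 (limma adjusted p = 0.0285), where 4.09% of all genes were called. Without both aorta libraries numbered 1 it called Kcnq1 (limma adjusted p = 0.0264), where 2.2% were. Leaving out empagliflozin kidney library 2 gave calls of Kcne1, Kcne3 and Kcnmb2, where 2.3% were. Other single libraries left out gave calls of Kcnh4, Kcnh5, Kcnj6, Kcnk12 or Kcnc4. On simulated data this model also called unchanged genes.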

How the data were processed

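Per the labels' protocols, sequencing used a BGISEQ-500 and single 50-base reads. HISAT2 2.0.4, Bowtie2 2.2.5 and Rnor_6.0 are named in the submitters' processing notes; the sources used here do not name the counting program or say whether it used strand. The authors deposited FPKM per gene and library, so no count test was made, depth is unknown, and a 0 can be a failed estimate. Groups follow tissue and arm in the labels. The design gives 3 rats per arm.

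Genes averaging 1 FPKM or more in any group were fitted with limma 3.58.1 (R 4.3.3) on log2(FPKM + 1) with an intensity trend. P-values were adjusted by Benjamini-Hochberg over all genes at 0.05, two-sided. Contrasts of a tissue with the mean of the others also needed a log2 difference of at least 1. The scripts were tested on simulated data: the aorta fit recovered none of the known differences, and the arm by tissue model, which assumes 1 spread per gene over tissues, called unchanged genes. Figures were drawn with matplotlib 3.10.9.

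The members, marker lists and the list of 17 partner genes were chosen with earlier results of these data known. Named members are the 5 highest per tissue, the 4 called members with the largest difference per vehicle tissue, up to 12 called members per direction between atrium and V with a difference of at least 1, the 3 members with the lowest p per direction and tissue for empagliflozin, and a panel of channels of known roles. Others named were chosen after their values were seen. Some members that this rule takes are not reported here by name, but stay in the counts and sums.

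Replicate numbers paired the libraries where every same-numbered pair correlated over 0.1 in deviations from group means: lung (0.227, 0.303 and 0.346) and vehicle brown fat with white fat (0.229, 0.174 and 0.159). Alternatives were quantile and median-ratio scaling, a pseudocount of 0.1, a filter at a mean of 5 FPKM or none, a replicate block, all libraries in 1 fit, and leaving out each library.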

Additional observations from a re-analysis of the deposited data

How the results depend on the processing

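Empagliflozin against vehicle called 0 members in every tissue under both scalings, the pseudocount of 0.1, both filters and the replicate block. With all libraries in 1 fit it called 2 in kidney and 5 in brain, where 2% and 1.39% of all genes were called. Leaving out 1 library at a time gave 0 to 6 in kidney and 0 in the other 6 tissues. The 6 came without empagliflozin kidney library 2, where 4.9% of all genes were called. Between atrium and V the main count was 25, where 51.7% of all genes were called. With all libraries in 1 fit it was 13, where 21.9% were, and the cause of this drop was not tested. It was 13 with a mean of at least 5 FPKM, which tested fewer genes, and 22 to 26 without 1 library. The shares of all genes for these last counts are not given here. With a pseudocount of 0.1 the tissue contrasts called 61 members in kidney, 49 in aorta, 62 in V, 52 in lung, 58 in brown fat and 54 in white fat, in place of 37, 25, 34, 34, 32 and 29, where 23.8% to 42.2% of all genes were called, mostly as more lower calls; a smaller pseudocount by construction widens the differences of low genes. Of the arm by tissue counts, leaving out 1 library gave 0 to 3. The 3 came without empagliflozin kidney library 2, where 2.3% of all genes were called. Leaving out both aorta libraries numbered 1 gave 1, where 2.2% were. Leaving out 1 library moved the log2 difference of Kcnj8 between arms in V from -0.12 to between -0.26 and 0.031, the last without vehicle V library 1, and it was called in none. Fits with a replicate block gave 0 calls for empagliflozin in each tissue and for the arm by tissue term. They gave 24 between atrium and V in place of 25, where 49.1% of all genes were called. In kidney against the other tissues they gave 38 in place of 37, where 28.8% were. The pairing held between the arms of lung and between vehicle brown fat and white fat. With the block, empagliflozin in lung still gave 0 calls. Brown fat and white fat against the other tissues still gave 32 and 29, where 23.0% and 17.8% of all genes were called. In the remaining groups at least 1 same-numbered pair did not pass 0.1. In vehicle kidney with brain and vehicle aorta with lung, 6 of 6 libraries still correlated best with their own number. The design gives 3 rats per arm, so libraries of different tissues may share rats, which the main fits do not model. With 3 libraries a group and no known depth, small differences were not detectable.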
